A study of Mus musculus with 8 samples.

Results

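The genes described here are 44 genes of DNA replication and of the entry into S phase, read out in bulk RNA-Seq of the pancreas of 8 mice. They were chosen by symbol from a list that names the replicative helicase, the factors that load it, the polymerases, their clamp, the enzymes of nucleotide supply, the chromatin factors at the fork and the cyclin E switch. All 44 were present among the 15047 gene symbols of the deposited values. The mice were male C57BL/6 in 3 groups, which were 3 wild-type mice on a low-fat diet (LFD), 3 wild-type mice on a high-fat diet (HFD) and 2 leptin-deficient ob/ob mice. Feeding began at the age of 4 weeks and lasted 10 weeks, the HFD took 60% of its calories from fat, and the ob/ob mice ate normal chow, so genotype and chow cannot be told apart in them. The labels name the tissue as pancreas. The study gives in addition, for the same groups, an orthotopic transplant of mT organoids, which are cultures grown from mouse pancreatic tumours, so that all groups carried the graft. The ob/ob allele removes leptin from every tissue. The values are rlog values, which are counts put on a log2 scale with a correction for library size and with differences shrunk at low counts, so a difference of 1 is a change of 2-fold.

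Eukaryotic cells copy their DNA once in each cycle. In G1 the origin recognition complex, with Cdc6 and Cdt1, loads the ring of the MCM2-7 proteins on origins, which licenses them. At the start of S phase kinases recruit Cdc45 and GINS to the ring, which turns it into the active helicase, and the polymerases, with the sliding clamp PCNA, copy the strands. Cyclin E with its kinase and the E2F transcription factors drive this step, and many genes of the machinery are known E2F targets. In the adult pancreas most acinar cells rest outside the cycle.

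Promoter sequence is given first, since many of these genes share a known type of E2F site. RefSeq promoter windows on GRCm38, of 250 bases before to 50 bases after the start, were found for 35 of the 44 genes, as 41 windows. The windows were searched on both strands for 4 strings of 8 letters, TTTCCCGC, TTTCGCGC, TTTGCCGC and TTTGGCGC. A match was present in 14 of the 41 windows (34.1%), each of another gene, against 2.26% of all 32851 promoter windows and 3.62% of the 14830 windows of genes with an rlog value. There were 6 genes with a match before the start used by the window and an unadjusted p-value under 0.05 in each comparison with LFD. For these, the stretch around the match is printed 5′ to 3′ on the strand of the gene, with the matched letters in capitals. These are the letters searched or their reverse complement, and in Mcm5 they belong to a pair of overlapping matches, 1 on each strand.
Orc1, chr4:108579418-108579443, plus strand: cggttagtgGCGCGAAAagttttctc
Mcm5, chr8:75109347-75109376, plus strand: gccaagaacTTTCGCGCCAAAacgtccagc
Gins3, chr8:95633509-95633534, plus strand: gagtgcggcGCGGGAAAgcgagtttg
Pola1, chrX:93632277-93632302, minus strand: catcacaggGCGCCAAAtgcactccc
Rfc3, chr5:151651209-151651227, minus strand: gtcgcacgcTTTCGCGCtc
Uhrf1, chr17:56304119-56304144, plus strand: cgagtcgggTTTCGCGCgcccaggcg
The matched letters lay between 27 and 20 bases before the start of the window in Orc1, between 41 and 34 in Gins3, and between 185 and 178 in Uhrf1. By the gene coordinates, the letters lay inside the gene in Orc1, Gins3, Rfc3 and Uhrf1, and before it in Mcm5 and Pola1. The other Uhrf1 window, at the start of the gene by its coordinates, held 0 matches. No window was found for Mcm4, Gins1, Gins2, Gins4, Gmnn, Rfc2, Prim2, Pole and Ccne2. The letters TTTGAA, known as the cell cycle homology region of mitotic promoters, were searched in the same way. They were found in 12.2% of the windows of the replication genes and in 76.2% of the 21 windows found for 20 of 25 mitosis genes, against 17.9% of all windows and 12.8% of the windows of genes with an rlog value, while 1 of these 21 mitosis windows held an E2F-type match (4.76%). A match of letters describes the window and does not show that a factor binds there.

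**Figure D1:**
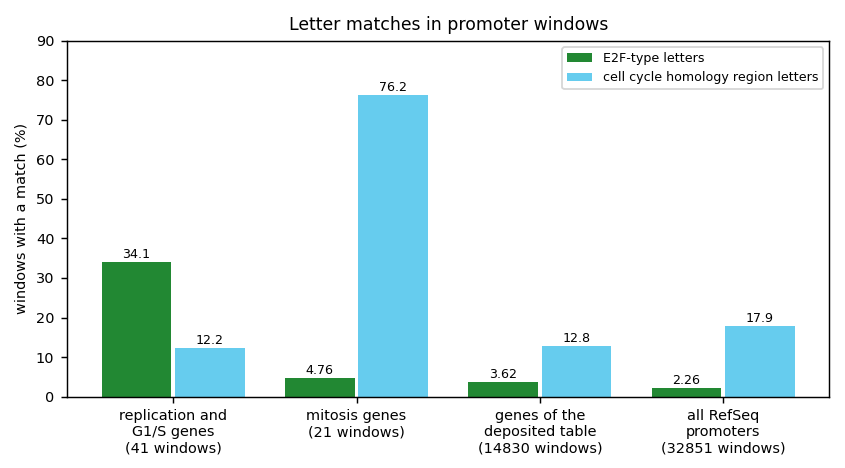
Share of promoter windows (y axis, percent) with a match of the E2F-type letters (green) or of the cell cycle homology region letters (blue) for 4 sets of windows (x axis). The E2F-type letters were found in 34.1% of the windows of the replication and G1/S genes, and the cell cycle homology letters in 76.2% of those of the mitosis genes.

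The tissue label was checked with 26 markers of acinar cells, the enzyme-secreting cells of the pancreas, and all were present, with mean rlog values between 13.8 and 17.9 in the 8 mice. This mean was 17.4 to 17.9 in the LFD mice and 17.8 in HFD replicate 1, but 15.7 and 13.8 in HFD replicates 2 and 3, and 17.0 and 14.1 in ob/ob replicates 1 and 2. The HFD mice were thus spread about evenly, and only HFD replicate 1 was at the level of the LFD mice. The counts of calls below are also given without it, as 1 of the fits that left out a mouse. No 2 mice held identical values, and the correlation between mice over all genes was 0.884 to 0.982. The mice are separate animals, so p-values measure the spread between these mice, and no counts were used here, so the depth is unknown. In bulk tissue a lower number of cells of a type and less RNA per cell cannot be told apart. The mean rlog value of the 44 genes was 5.91, 6.25 and 6.1 in the LFD mice, 6.19, 6.94 and 7.17 in the HFD mice, and 6.54 and 7.25 in the ob/ob mice. HFD replicate 1 lay within the range of the LFD mice, while the other 4 obese mice lay above it.

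Within the list this order of the mice was shared by most genes, as the map of all members by mouse shows. HFD replicate 1 was the lowest HFD mouse in 40 of the 44 genes, which was so in 44.7% of all genes. HFD replicates 2 and 3 were both above the highest LFD mouse in 39 genes, against 30.0% of all genes. Replicate 2 was above replicate 1 of the ob/ob mice in all 44 genes, against 53.5% of all genes. The highest of the 8 mice was ob/ob replicate 2 in 24 genes and HFD replicate 3 in 15. All 5 obese mice were above the highest LFD mouse in 13 genes (9.40% of all genes). These counts are descriptions, since genes of a mouse are not independent.

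**Figure D2:**
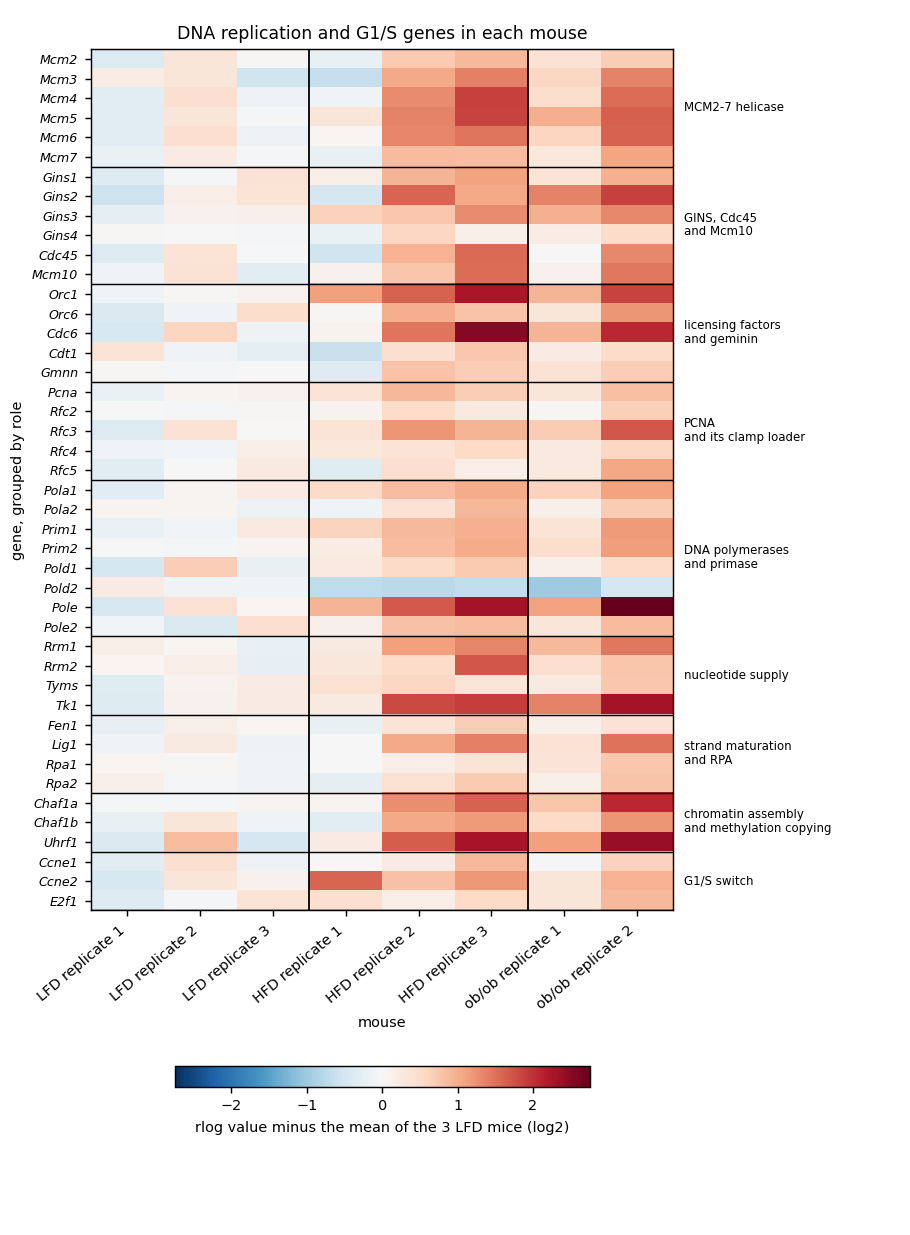
Rlog value of each of the 44 genes (rows, grouped by role) in each mouse (columns) minus the mean of the 3 LFD mice, on a log2 color scale. HFD replicate 1 is close to the LFD mice in most rows, HFD replicates 2 and 3 and ob/ob replicate 2 are darkest, and Pold2 is the row that is lower in all 5 obese mice.

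The study asked how obesity from diet and from leptin loss changes the transcriptome of the transplanted pancreas, and the first comparison was HFD with LFD. Of the 44 genes, 43 had a higher mean in the HFD mice and 1, Pold2, a lower mean, with a median log2 difference of 0.66 against 0.03 over all genes. The range was -0.71 (Pold2) to 1.67 (Orc1), and 8 genes were above 1. With limma no gene of the 15047 had a Benjamini-Hochberg adjusted p-value under 0.05 (0%), and the adjusted p-values of the 44 genes were 0.175 to 0.867. At an unadjusted p-value under 0.05, used below as the threshold of a call and always unadjusted, 14 of the 44 were higher, against 11.5% of all genes, and 1 was lower, against 8.35%. All 3 HFD mice were above all 3 LFD mice in 15 of the 44 genes, against 12.9% of all genes. The count of 15 called genes was 33 without HFD replicate 1, of which 32 were higher, when 19.8% of all genes were called higher. In that limma fit 17 of the 44 had an adjusted p-value under 0.05, against 18.7% of all genes, and the remaining HFD mice were above all LFD mice in 39 of the 44, against 30.0% of all genes. HFD replicate 1 was the HFD mouse with the lowest mean of the 44 genes, within the LFD range. Leaving it out therefore favours more calls, and the counts of that fit are descriptions only. Over the alternatives of this comparison the smallest limma adjusted p-value of a member lay between 0.0165 and 0.504. The count was 9 without HFD replicate 2, 8 without HFD replicate 3 and 8 without LFD replicate 1. In these fits 9.84%, 10.6% and 12.9% of all genes were called, against 19.8% with all mice.

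In the comparison of ob/ob with LFD, which shares its LFD mice with the first, 43 of the 44 genes were again higher in mean and Pold2 lower. The median log2 difference was 0.68, against 0.04 over all genes, with a range of -0.71 (Pold2) to 1.93 (Pole), and 13 genes were above 1. No gene of the table passed the adjusted threshold in limma (0%), and the adjusted p-values of the members were 0.194 to 0.674. At the unadjusted threshold 16 were higher, against 11.6% of all genes, and 1 was lower, against 7.18%. Both ob/ob mice were above all LFD mice in 31 of the 44 genes, against 24.1% of all genes. The count of 17 called genes was 7 without LFD replicate 1, when 13% of all genes were called, against 18.8% with all mice. Leaving out an ob/ob mouse left 1 mouse in that group. The median difference was then 0.38 without ob/ob replicate 2 and 1.10 without ob/ob replicate 1. Without HFD replicate 1, which enters this comparison through the shared variance, 22 were called higher and 1 lower, against 15.4% of all genes higher.

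**Figure D3:**
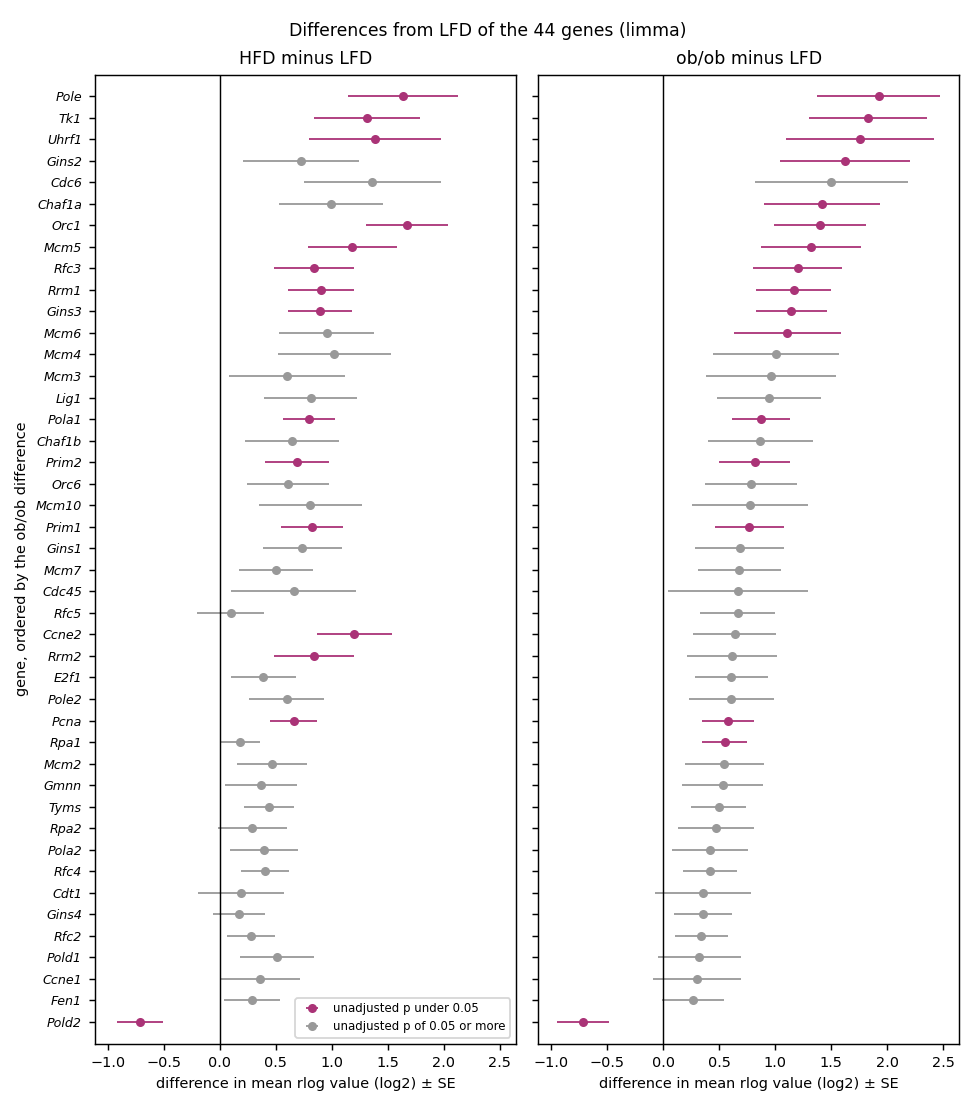
Difference in mean rlog value (x axis, log2, points with SE from limma) of each of the 44 genes (y axis) for HFD minus LFD on the left and ob/ob minus LFD on the right. Colored points have an unadjusted p-value under 0.05. All points but Pold2 lie right of 0, and the errors of many of them reach over that line or close to it.

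Of the 6 genes of the MCM2-7 ring, the motor that unwinds DNA, Mcm5 was called in the HFD mice, and Mcm5 and Mcm6 in the ob/ob mice, all higher. Losses of member calls with the acinar mean of each mouse as a covariate are given together further below, and not gene by gene. Mcm5 (chr8:75109569-75128439, plus strand) stood at 6.01, 6.65 and 6.3 in the LFD mice, 6.64, 7.67 and 8.19 in the HFD mice, and 7.31 and 7.97 in the ob/ob mice. HFD replicate 1 lay just below the highest LFD mouse and the other obese mice lay above all LFD mice. The difference was 1.18 ± 0.4 (SE) for HFD (limma adjusted p = 0.2) and 1.32 ± 0.44 (SE) for ob/ob (limma adjusted p = 0.216). The HFD call was lost without LFD replicate 1 (1.03), HFD replicate 2 (1.10) or HFD replicate 3 (0.84), and the ob/ob call without LFD replicate 1 (1.16) or ob/ob replicate 2 (0.99). Mcm2 stood at 7.27, 7.99 and 7.69 in the LFD mice, 7.44, 8.38 and 8.54 in the HFD mice, and 8.06 and 8.33 in the ob/ob mice. Its HFD and LFD mice overlapped, and neither difference, 0.47 ± 0.31 (SE) and 0.55 ± 0.35 (SE), was called. Mcm6 had a difference of 0.96 ± 0.43 (SE) in the HFD mice, just outside the threshold of a call, and of 1.11 ± 0.48 (SE) in the ob/ob mice (limma adjusted p = 0.261), where the call was lost without ob/ob replicate 2 (0.60), LFD replicate 1 (0.95), LFD replicate 3 (1.04) or HFD replicate 2 (1.11), and with a variance not trended on expression (1.11). Mcm3, Mcm4 and Mcm7 had differences of 0.6, 1.02 and 0.5 for HFD and of 0.97, 1.01 and 0.68 for ob/ob, none called. Both ob/ob mice were above all LFD mice in all 6 ring genes, against 24.1% of all genes. No ring gene separated the HFD from the LFD mice, since HFD replicate 1 was within or below the LFD range in each. All HFD mice were above all LFD mice in 12.9% of all genes. The ob/ob group held 2 mice and the HFD group 3, so these counts are not like for like.

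Cdc45 and the 4 GINS proteins are bound to the ring to form the active helicase, and Mcm10 helps to start it. Gins3 (chr8:95633453-95645060, plus strand) stood at 3.98, 4.34 and 4.36 in the LFD mice, 4.87, 4.97 and 5.53 in the HFD mice, and 5.2 and 5.54 in the ob/ob mice. All 5 obese mice lay above all LFD mice. The difference was 0.9 ± 0.28 (SE) for HFD (limma adjusted p = 0.193) and 1.15 ± 0.32 (SE) for ob/ob (limma adjusted p = 0.194), the smallest p-value of the list in the ob/ob comparison, and neither call was lost when any 1 mouse was left out. Gins2 stood at 4.15, 4.89 and 5.08 in the LFD mice, 4.25, 6.3 and 5.75 in the HFD mice, and 6.08 and 6.58 in the ob/ob mice. HFD replicate 1 was near the lowest LFD mouse and both ob/ob mice were above every LFD mouse. Gins2 was called for ob/ob (1.62 ± 0.58 (SE), limma adjusted p = 0.224), a call lost without LFD replicate 1 (1.34) or ob/ob replicate 2 (1.37), and not for HFD (0.72 ± 0.52 (SE)). Cdc45 stood at 5.03, 5.79 and 5.39 in the LFD mice, 4.87, 6.37 and 6.96 in the HFD mice, and 5.43 and 6.73 in the ob/ob mice. Its values ran from the lowest mouse, HFD replicate 1, to the highest, HFD replicate 3, and neither difference, 0.66 ± 0.56 (SE) and 0.67 ± 0.62 (SE), was called. Mcm10 stood at 4.68, 5.17 and 4.48 in the LFD mice, 4.89, 5.55 and 6.32 in the HFD mice, and 4.89 and 6.22 in the ob/ob mice. Only HFD replicates 2 and 3 and ob/ob replicate 2 lay above the LFD mice, and its differences of 0.81 ± 0.46 (SE) and 0.78 ± 0.52 (SE) were not called. Gins1 and Gins4 were not called either, with differences of 0.74 and 0.17 for HFD and 0.68 and 0.36 for ob/ob.

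Among the licensing factors Orc1, the ATPase subunit of the origin recognition complex that varies with the cycle, had the smallest p-value and the largest difference of the 44 genes in the HFD comparison. Orc1 (chr4:108579423-108614833, plus strand) stood at 2.51, 2.66 and 2.72 in the LFD mice, 3.76, 4.26 and 4.88 in the HFD mice, and 3.56 and 4.49 in the ob/ob mice. The SD of the LFD mice was 0.11, and all 5 obese mice lay above them, HFD replicate 1 included. The difference was 1.67 ± 0.37 (SE) for HFD (limma adjusted p = 0.175) and 1.4 ± 0.41 (SE) for ob/ob (limma adjusted p = 0.2). The HFD call held without each mouse, at 1.38 to 1.94, and the ob/ob call was lost without ob/ob replicate 2 (0.94). Orc1 had the lowest mean rlog value of the list, 3.61 over the 8 mice, where the transformation shrinks differences most. Orc6, another subunit, was not called, at 0.61 ± 0.37 (SE) and 0.78 ± 0.41 (SE). Orc2 to Orc5, the other subunits, are not members and were looked up after the values of Orc1 had been seen. Their differences were 0.42, -0.07, -0.14 and 0.33 for HFD and 0.48, 0.13, -0.45 and 0.33 for ob/ob, in the order of their numbers, none of them called.

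Cdc6, the ATPase that helps to load the ring, stood at 3.58, 4.63 and 3.88 in the LFD mice, 4.12, 5.5 and 6.54 in the HFD mice, and 4.96 and 6.09 in the ob/ob mice. HFD replicate 3 and ob/ob replicate 2 were highest and HFD replicate 1 lay within the LFD range. Its differences of 1.36 ± 0.61 (SE) and 1.5 ± 0.68 (SE) were large but missed the threshold of a call. Cdt1, the partner of Cdc6 that is destroyed once S phase begins, stood at 5.45, 4.96 and 4.79 in the LFD mice, 4.45, 5.52 and 5.8 in the HFD mice, and 5.28 and 5.57 in the ob/ob mice. HFD replicate 1 was the lowest of all mice, LFD replicate 1 lay among the obese mice, and the differences were 0.19 ± 0.38 (SE) and 0.36 ± 0.43 (SE). The Cdt1 difference for HFD turned to -0.08 without HFD replicate 3 and to -0.04 with quantile normalization. Gmnn, which encodes geminin, the inhibitor of Cdt1, stood at 5.93, 5.83 and 5.91 in the LFD mice, 5.53, 6.66 and 6.58 in the HFD mice, and 6.28 and 6.57 in the ob/ob mice. The 4 obese mice other than HFD replicate 1 lay above all LFD mice, and the differences of 0.37 ± 0.32 (SE) and 0.53 ± 0.36 (SE) were not called.

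PCNA is the sliding clamp that holds the polymerases on DNA, and replication factor C, of which Rfc2 to Rfc5 are the small subunits, loads it. Pcna (chr2:132249162-132253314, minus strand) stood at 8.66, 8.92 and 8.97 in the LFD mice, 9.23, 9.77 and 9.53 in the HFD mice, and 9.18 and 9.68 in the ob/ob mice. All 5 obese mice lay above all LFD mice, with HFD replicate 1 and ob/ob replicate 1 nearest to them. The difference was 0.66 ± 0.21 (SE) for HFD (limma adjusted p = 0.192), a call that held without each mouse, and 0.58 ± 0.23 (SE) for ob/ob (limma adjusted p = 0.246). The ob/ob call was lost without ob/ob replicate 2 (0.33), LFD replicate 1 (0.49) or LFD replicate 2 (0.62), and with an untrended variance (0.58) or each mouse centred on its median (0.49). Rfc3 was called in both comparisons, at 0.84 ± 0.36 (SE) (limma adjusted p = 0.245) and 1.2 ± 0.4 (SE) (limma adjusted p = 0.215). The HFD call of Rfc3 was lost without LFD replicate 1 (0.66), LFD replicate 3 (0.83), HFD replicate 2 (0.66) or HFD replicate 3 (0.80), and with centring (0.76) or quantile normalization (0.65). The ob/ob call of Rfc3 was lost without LFD replicate 1 (1.01) or ob/ob replicate 2 (0.70). Rfc5 stood at 6.65, 6.95 and 7.19 in the LFD mice, 6.6, 7.39 and 7.1 in the HFD mice, and 7.2 and 8.0 in the ob/ob mice. The HFD and LFD mice overlapped and ob/ob replicate 2 was highest, and the differences of 0.1 ± 0.3 (SE) and 0.67 ± 0.34 (SE) were not called. The HFD difference of Rfc5, the nearest to 0 of the list, turned to -0.04 without LFD replicate 1 and to -0.08 without HFD replicate 2. Rfc2 and Rfc4 were not called, at 0.28 and 0.41 for HFD and 0.34 and 0.42 for ob/ob.

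The 8 genes of the polymerases held 4 called higher and 1 called lower in each comparison. The shares of all genes called higher and lower were 11.5% and 8.35% for HFD, and 11.6% and 7.18% for ob/ob. Pole (chr5:110286306-110337474, plus strand), the catalytic subunit of polymerase epsilon, which copies the leading strand, stood at 4.7, 5.52 and 5.17 in the LFD mice, 6.07, 6.82 and 7.42 in the HFD mice, and 6.24 and 7.88 in the ob/ob mice. All 5 obese mice lay above all LFD mice, with ob/ob replicate 2 and HFD replicate 3 highest. The difference was 1.64 ± 0.49 (SE) for HFD (limma adjusted p = 0.183) and 1.93 ± 0.55 (SE) for ob/ob (limma adjusted p = 0.2), the largest of the list in that comparison. The HFD call held without each mouse, at 1.32 to 1.99, and the ob/ob call was lost without ob/ob replicate 2 (1.10). Pole2, an accessory subunit of the same enzyme, stood at 4.68, 4.36 and 5.22 in the LFD mice, 4.88, 5.56 and 5.61 in the HFD mice, and 5.1 and 5.63 in the ob/ob mice. LFD replicate 3 was above 1 mouse of each obese group, and the differences of 0.6 ± 0.34 (SE) and 0.61 ± 0.38 (SE) were not called.

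Pola1 (chrX:93304767-93632155, minus strand), the catalytic subunit of polymerase alpha, which extends the primers, stood at 6.85, 7.22 and 7.37 in the LFD mice, 7.66, 8.0 and 8.18 in the HFD mice, and 7.78 and 8.26 in the ob/ob mice. All obese mice lay above all LFD mice. The difference was 0.8 ± 0.23 (SE) for HFD (limma adjusted p = 0.181), held without each mouse, and 0.87 ± 0.26 (SE) for ob/ob (limma adjusted p = 0.201), lost without ob/ob replicate 2 (0.63). Prim1 and Prim2, the primase subunits that make the primers, were called in both comparisons, at 0.83 and 0.69 for HFD (limma adjusted p = 0.2 and limma adjusted p = 0.239) and 0.77 and 0.82 for ob/ob (limma adjusted p = 0.248 and limma adjusted p = 0.24). The HFD call of Prim1 was lost without LFD replicate 1 (0.73), and its ob/ob call without LFD replicate 1 (0.68), LFD replicate 2 (0.73), HFD replicate 2 (0.77) or ob/ob replicate 2 (0.37), with only the groups compared (0.77), with centring (0.68) or with quantile normalization (0.58). The HFD call of Prim2 was lost without any 1 of the LFD mice (0.66 to 0.72), HFD replicate 2 (0.61) or HFD replicate 3 (0.52), and with centring (0.61) or quantile normalization (0.54). Its ob/ob call was lost without any 1 of the LFD mice (0.79 to 0.85) or ob/ob replicate 2 (0.48), and with quantile normalization (0.67). Pola2 and Pold1 were not called, at 0.39 and 0.51 for HFD and 0.42 and 0.32 for ob/ob.

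Pold2 (chr11:5872180-5878292, minus strand), an accessory subunit of polymerase delta, which copies the lagging strand, was the exception. It stood at 7.98, 7.66 and 7.63 in the LFD mice, 7.05, 7.01 and 7.08 in the HFD mice, and 6.79 and 7.29 in the ob/ob mice. The SD of the HFD mice was 0.035, and all 5 obese mice lay below all LFD mice. The difference was -0.71 ± 0.21 (SE) for HFD (limma adjusted p = 0.181), held without each mouse, and -0.71 ± 0.23 (SE) for ob/ob (limma adjusted p = 0.21), lost without LFD replicate 1 (-0.60) or ob/ob replicate 1 (-0.46). Pold1, the catalytic subunit of the same enzyme, had a higher mean in both obese groups, as given above.

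Ribonucleotide reductase, of which Rrm1 and Rrm2 are the subunits, thymidylate synthase (Tyms) and thymidine kinase (Tk1) supply the nucleotides. Tk1 (chr11:117815526-117826092, minus strand) stood at 4.69, 5.16 and 5.27 in the LFD mice, 5.28, 6.85 and 6.94 in the HFD mice, and 6.41 and 7.33 in the ob/ob mice. HFD replicate 1 was at the level of the highest LFD mouse, and the other 4 obese mice lay more than 1 above it. The difference was 1.32 ± 0.47 (SE) for HFD (limma adjusted p = 0.211) and 1.83 ± 0.53 (SE) for ob/ob (limma adjusted p = 0.2). The HFD call was lost without LFD replicate 1 (1.14), HFD replicate 2 (1.07) or HFD replicate 3 (1.02), and the ob/ob call without ob/ob replicate 2 (1.37).

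Rrm1 (chr7:102441695-102469771, plus strand) stood at 8.22, 8.1 and 7.84 in the LFD mice, 8.31, 9.18 and 9.4 in the HFD mice, and 8.95 and 9.5 in the ob/ob mice. All obese mice lay above all LFD mice, HFD replicate 1 by the least. The difference was 0.91 ± 0.3 (SE) for HFD (limma adjusted p = 0.194), lost without LFD replicate 3 (0.80), HFD replicate 2 (0.80) or HFD replicate 3 (0.69), and 1.17 ± 0.33 (SE) for ob/ob (limma adjusted p = 0.2), lost without ob/ob replicate 2 (0.89). Rrm2 stood at 6.74, 6.87 and 6.47 in the LFD mice, 7.0, 7.2 and 8.41 in the HFD mice, and 7.16 and 7.46 in the ob/ob mice. Every obese mouse lay above the LFD mice, but HFD replicate 3 lay more than 1 above the other HFD mice. Its difference for HFD, 0.85 ± 0.36 (SE) (limma adjusted p = 0.243), was 0.41 without HFD replicate 3, and the call was also lost without any 1 of the LFD mice (0.73 to 0.93) or of the ob/ob mice (0.85). It was lost too with only the groups compared (0.85), with centring (0.76) and with quantile normalization (0.75). For ob/ob it was 0.62 ± 0.4 (SE) and not called. Tyms had differences of 0.44 and 0.5, not called, although all 5 obese mice lay above all LFD mice.

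**Figure D4:**
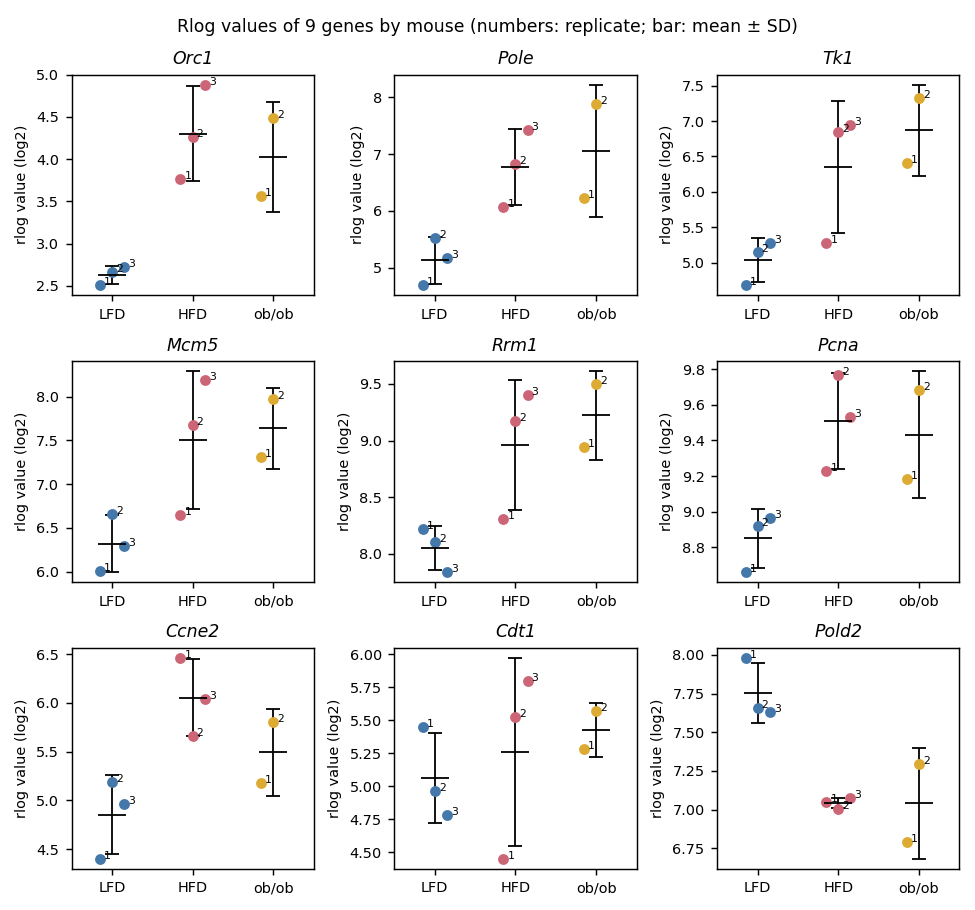
Rlog values (y axis, log2) of 9 genes in each mouse by group (x axis), with the replicate number beside each point and bars for the mean and SD of 3 LFD, 3 HFD and 2 ob/ob mice. In Orc1, Pole, Rrm1 and Pcna all obese mice lie above the LFD mice, in Cdt1 the groups overlap, and in Pold2 all obese mice lie below.

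Fen1 and Lig1 trim and join the fragments of the lagging strand, and Rpa1 and Rpa2 coat single-stranded DNA. None of the 4 was called for HFD, with differences between 0.18 (Rpa1) and 0.81 (Lig1). Rpa1 stood at 8.35, 8.31 and 8.19 in the LFD mice, 8.26, 8.46 and 8.67 in the HFD mice, and 8.65 and 9.02 in the ob/ob mice. Both ob/ob mice were above all LFD mice, and the ob/ob difference of 0.55 ± 0.2 (SE) was called (limma adjusted p = 0.227), a call lost without ob/ob replicate 2 (0.36), LFD replicate 2 (0.57) or LFD replicate 3 (0.50). Fen1, Lig1 and Rpa2 had ob/ob differences of 0.27, 0.95 and 0.47, none called.

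The chromatin group holds Chaf1a and Chaf1b, subunits of the factor that places histones on new DNA, and Uhrf1, which brings the DNA methyltransferase Dnmt1 to it. Uhrf1 (chr17:56303321-56323486, plus strand) stood at 5.3, 6.53 and 5.22 in the LFD mice, 5.91, 7.35 and 7.94 in the HFD mice, and 6.82 and 8.07 in the ob/ob mice. LFD replicate 2 was more than 1 above the other LFD mice and above HFD replicate 1. The difference was 1.38 ± 0.59 (SE) for HFD (limma adjusted p = 0.246) and 1.76 ± 0.66 (SE) for ob/ob (limma adjusted p = 0.233). The HFD call was lost without LFD replicate 1 (1.19), LFD replicate 3 (1.16), HFD replicate 2 (1.24) or HFD replicate 3 (0.95), and with an untrended variance (1.38) or quantile normalization. The ob/ob call was lost without LFD replicate 1 (1.57), LFD replicate 3 (1.53) or ob/ob replicate 2 (1.13). Chaf1a was called for ob/ob (1.42 ± 0.52 (SE), limma adjusted p = 0.227), lost without LFD replicate 1 (1.4), LFD replicate 2 (1.4) or ob/ob replicate 2 (0.77), and not for HFD (0.99 ± 0.46 (SE)). Chaf1b was not called, at 0.65 and 0.87.

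The G1/S switch genes are those of the E cyclins and E2f1. HFD replicate 1 was not the lowest HFD mouse in Ccne2, E2f1, Tyms and Pold2, and it was the lowest in Ccne1 as in the other members. Ccne2 (chr4:11191351-11204779, plus strand), which encodes cyclin E2, stood at 4.4, 5.19 and 4.96 in the LFD mice, 6.46, 5.66 and 6.04 in the HFD mice, and 5.18 and 5.81 in the ob/ob mice. HFD replicate 1 was the highest of all mice here, and ob/ob replicate 1 lay just below the highest LFD mouse. The HFD difference was 1.2 ± 0.33 (SE) (limma adjusted p = 0.18), a call held without each mouse at 0.98 to 1.4, and the ob/ob difference was 0.64 ± 0.37 (SE), not called. Ccne1, for cyclin E1, stood at 4.42, 5.15 and 4.55 in the LFD mice, 4.7, 4.92 and 5.59 in the HFD mice, and 4.68 and 5.33 in the ob/ob mice. The groups overlapped, with differences of 0.36 ± 0.35 (SE) and 0.3 ± 0.39 (SE). E2f1, a transcription factor of the E2F family and itself induced at G1/S, stood at 4.62, 4.95 and 5.35 in the LFD mice, 5.42, 5.15 and 5.52 in the HFD mice, and 5.3 and 5.87 in the ob/ob mice. LFD replicate 3 lay within the range of the obese mice, and the differences of 0.39 ± 0.29 (SE) and 0.61 ± 0.33 (SE) were not called.

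Between ob/ob and HFD, the comparison of the forms of obesity, 0 of the 44 genes passed the unadjusted threshold in limma in either direction, against 2.28% of all genes higher and 1.63% lower, and 0% of all genes passed the adjusted one. The ob/ob mean was higher in 32 genes and lower in 12, with a median difference of 0.14 against 0.01 over all genes. The smallest p-values were those of Rpa1, Rfc5, Gins2 and Ccne2, with differences of 0.37 ± 0.2 (SE), 0.57 ± 0.34 (SE), 0.9 ± 0.58 (SE) and -0.56 ± 0.37 (SE). The median turned to -0.20 without HFD replicate 1 and to -0.22 without ob/ob replicate 2, and 1 gene was called without HFD replicate 2 or without ob/ob replicate 1. With 3 and 2 mice of wide spread, these values do not show that the groups are alike.

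The members with and without E2F-type letters in their promoter window are given side by side, as a description. The 14 genes with a match had a median difference of 0.83 for HFD and 1.04 for ob/ob, and 6 and 7 of them were called, all higher. The 21 genes with a window and no match had medians of 0.47 and 0.61, and 6 and 7 were called, of which 5 and 6 were higher. The shares of all genes called higher were 11.5% for HFD and 11.6% for ob/ob. The difference between the sets with and without a match was not tested.

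Other genes of the cycle were taken from lists. Of 34 other replication genes, 11 were called higher and 0 lower in limma for HFD, and 11 and 0 for ob/ob, with medians of 0.52 and 0.72, against 11.5% and 11.6% of all genes called higher. Without HFD replicate 1 these counts were 19 and 16, against 19.8% and 15.4% of all genes. The HFD count of these genes was 5 to 7 without LFD replicate 1, LFD replicate 3, HFD replicate 2 or HFD replicate 3. In these fits 6.04% to 7.66% of all genes were called higher. The ob/ob count was 7 without LFD replicate 1, against 8.61% of all genes. The ob/ob median was 0.38 without ob/ob replicate 2, which left 1 ob/ob mouse. The smallest p-value of the other replication genes in both comparisons was that of Hells, a chromatin remodeller needed for DNA methylation. Hells stood at 5.5, 5.39 and 6.15 in the LFD mice, 7.14, 7.74 and 7.85 in the HFD mice, and 7.13 and 8.01 in the ob/ob mice. Every obese mouse lay above every LFD mouse, with differences of 1.9 ± 0.33 (SE) (limma adjusted p = 0.162) and 1.89 ± 0.37 (SE) (limma adjusted p = 0.139). Of 25 mitosis genes, 21 were called higher for HFD and 24 for ob/ob, with medians of 1.53 and 1.92. Without HFD replicate 1 all 25 were called higher in both. The HFD count was 8 to 11 without LFD replicate 1, LFD replicate 3, HFD replicate 2 or HFD replicate 3. In these fits 6.04% to 7.66% of all genes were called higher. The ob/ob median was 1.32 without ob/ob replicate 2, which left 1 ob/ob mouse. Mki67, the gene of the Ki67 antigen of cycling cells, had differences of 1.95 ± 0.52 (SE) and 2.0 ± 0.58 (SE) (limma adjusted p = 0.18 and limma adjusted p = 0.2), Top2a, for the topoisomerase that untangles DNA, of 1.61 ± 0.57 (SE) and 2.0 ± 0.64 (SE) (limma adjusted p = 0.209 and limma adjusted p = 0.21). The Mki67 call for ob/ob was lost without ob/ob replicate 2 (1.54), as was that of Top2a (1.25), whose HFD call was lost without LFD replicate 1 (1.35), LFD replicate 3 (1.55), HFD replicate 2 (1.53) or HFD replicate 3 (1.14), and with the acinar mean of each mouse as a covariate (0.66). Bub1 had the smallest p-value of the mitosis list for HFD (1.85 ± 0.45 (SE), limma adjusted p = 0.179), and Cenpf for ob/ob (2.6 ± 0.55 (SE), limma adjusted p = 0.152).

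Of 26 other genes of G1/S control, 3 were called higher and 2 lower for HFD, and 6 higher and 4 lower for ob/ob. The shares of all genes were 11.5% and 8.35% for HFD, near those of this list, and 11.6% and 7.18% for ob/ob. Without HFD replicate 1 the counts were 10 and 3 for HFD, against 19.8% and 16.4% of all genes, and 10 and 4 for ob/ob, against 15.4% and 11.7%. The higher count for ob/ob was 1 or 2 without any 1 of the LFD mice, when 7.01% to 9.94% of all genes were called higher. Without ob/ob replicate 2, which left 1 ob/ob mouse, the ob/ob median of this list was 0.19, against 0.45 with all mice. Cdkn1a, the gene of the cycle inhibitor p21, stood at 5.34, 5.33 and 5.32 in the LFD mice, 6.53, 7.38 and 6.91 in the HFD mice, and 6.27 and 5.96 in the ob/ob mice. The LFD mice were nearly equal, and all obese mice lay above them, the HFD mice highest. Its differences were 1.61 ± 0.27 (SE) for HFD (limma adjusted p = 0.151) and 0.79 ± 0.3 (SE) for ob/ob (limma adjusted p = 0.235). The ob/ob call of Cdkn1a was lost without any 1 of the LFD mice (0.78 to 0.79) or ob/ob replicate 1 (0.63), and with quantile normalization (0.55), the replicate number as a block (0.78) or the acinar mean of each mouse as a covariate (0.73). Ccnd2, for cyclin D2, had the smallest p-value of this list for ob/ob and was called lower, at -0.74 ± 0.19 (SE) (limma adjusted p = 0.182), a call held without each mouse. Ccnd1, for cyclin D1, had differences of 1.04 ± 0.49 (SE) and 1.21 ± 0.54 (SE), both just outside the threshold, and was called for HFD without HFD replicate 1 (1.63), and for ob/ob without ob/ob replicate 1 (1.75), HFD replicate 1 or HFD replicate 3 (1.21 each). Myc, a driver of G1 progress, was called lower for ob/ob (-0.5 ± 0.18 (SE), limma adjusted p = 0.227) and not for HFD (-0.31 ± 0.16 (SE)), and the ob/ob call was lost without LFD replicate 1 (-0.47), LFD replicate 3 (-0.5) or ob/ob replicate 1 (-0.39), and with the replicate block (-0.47).

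The acinar, leukocyte and fibroblast means broadly varied with the mean of the 44 genes, the acinar mean in the opposite direction. The other lists did not follow it in all groups. The epithelium, endothelial and adipocyte means were lowest in ob/ob replicate 2, where the mean of the 44 genes was highest. The mean of the acinar markers was lowest in HFD replicate 3, ob/ob replicate 2 and HFD replicate 2, the 3 mice in which the mean of the 44 genes was highest. The share of acinar markers in the sum of all values put back on the linear scale was 59.4% to 62.3% in the LFD mice and HFD replicate 1, 56.7% in ob/ob replicate 1, 40.1% in HFD replicate 2, 21% in HFD replicate 3 and 23.6% in ob/ob replicate 2. The mean of 12 leukocyte markers was 7.82 to 8.60 in LFD, 8.84 to 9.73 in HFD and 9.44 to 10.08 in ob/ob mice, and 9 and 12 of the 12 were called higher. The mean of 12 fibroblast markers was 8.87 to 9.33, 9.69 to 10.5 and 10.1 to 10.93 in the same order, and 6 and 10 were called higher. Of all genes, 11.5% were called higher and 8.35% lower for HFD, and 11.6% and 7.18% for ob/ob. The mean of 14 duct and tumour epithelium markers was 8.73 to 9.17 in LFD, 9.09 to 9.97 in HFD and 8.54 to 9.49 in ob/ob mice, with 5 called higher for HFD, and 1 higher and 2 lower for ob/ob. The lymphocyte mean was 3.56 to 5.79 in LFD, 3.93 to 4.45 in HFD and 4.04 to 4.17 in ob/ob mice, highest in LFD replicate 2, and 0 of 12 were called in limma. The means of 16 islet, 9 endothelial and 8 adipocyte markers lay within 7.32 to 9.08, 7.16 to 8.01 and 6.68 to 8.02 over the 8 mice, and 8 of the islet markers were called higher in the ob/ob mice. Without HFD replicate 1 the numbers called higher for HFD were 12 leukocyte, 10 fibroblast and 10 epithelium markers, 14 of the 26 acinar markers were called lower in place of 1, and the leukocyte, fibroblast, epithelium and islet numbers for ob/ob were 12, 10, 1 and 8. Of all genes, 19.8% were called higher and 16.4% lower for HFD without HFD replicate 1, and 15.4% higher for ob/ob. For HFD, leukocyte, fibroblast and epithelium numbers were 6, 4 and 1 without HFD replicate 2, and 6, 5 and 3 without HFD replicate 3. Without 1 LFD mouse they were 6 to 10, 5 to 7 and 1 to 3. In these fits 6.04% to 9.23% of all genes were called higher. For ob/ob without 1 LFD mouse, leukocyte and fibroblast numbers were 8 to 12 and 7 to 10, against 7.01% to 9.94% of all genes. Without ob/ob replicate 2, leaving 1 ob/ob mouse, their ob/ob medians fell to 1.15 and 0.93. No marker of these lists was listed at 0.

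With the acinar mean of each mouse as a covariate in limma, 6 of the 44 genes were called higher for HFD and 6 for ob/ob, against 6.25% and 6.39% of all genes, and Pold2 was called lower in both. The genes called higher were Orc1, Pole, Pola1, Rrm1, Pcna and Ccne2 for HFD, and Orc1, Pole, Pola1, Rrm1, Tk1 and Gins3 for ob/ob. All other calls of members given above were lost with this covariate, among them that of Mcm6 for ob/ob (0.38). The median difference of the 44 genes was then 0.24 for HFD and 0.29 for ob/ob, and 11 and 7 genes that were not called turned from a higher to a lower mean. The part of the leukocyte, fibroblast and epithelial markers in these differences was not tested, and which cells held the RNA cannot be read from bulk tissue.

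**Figure D5:**
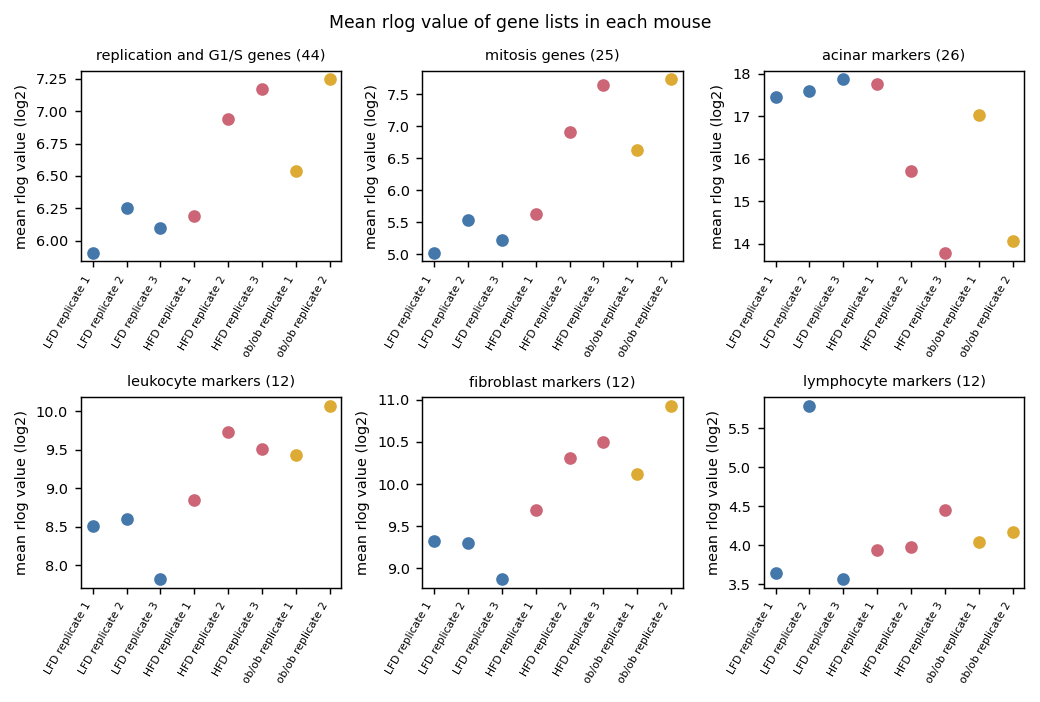
Mean rlog value (y axis, log2) of 6 gene lists in each mouse (x axis, color by group). The 44 replication and G1/S genes and the mitosis genes are highest in HFD replicates 2 and 3 and ob/ob replicate 2, the mice in which the acinar markers are lowest, and HFD replicate 1 is near the LFD mice in both.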

How the data were processed

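Pancreas RNA of 8 male mice was sequenced, and mice were grouped by the diet or genotype in their labels. The authors checked reads with FastQC, quantified Gencode M18 transcripts (GRCm38.p6) with Salmon 0.11.3, summed them per gene with tximport, and deposited the values of the rlog function of DESeq2 1.22.2, a log2 transformation of the counts that also corrects for library size. The filter that left 15047 symbols is not given in the sources used here. Reads that fit more than 1 transcript are divided by Salmon on probability, so near-identical genes are less certain than the rlog values show. No counts were analysed, the depth of each mouse is unknown, and 0 columns of other samples were present.

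Group means of all 8 mice in 3 groups were compared two-sided in limma 3.58.1 (R 4.3.3), with empirical Bayes variances trended on expression and Benjamini-Hochberg adjustment over all genes. Genes with an unadjusted p-value under 0.05 were called and counted beside the share of all genes called. Differences are in log2 units of rlog values, which are not per length, so levels were not compared between genes. The limma step was tested on simulated data with independent noise in each gene, which does not cover counts over genes that vary together. The alternatives tried were an untrended variance, a fit on the compared groups alone, a filter at a mean rlog value of 5, centring each mouse on its median, quantile normalization, a replicate block, an acinar covariate, and fits that left out 1 mouse each. A fit without 1 ob/ob mouse left 1 mouse in that group, so the spread came from the other groups. List counts without 1 mouse were added after the values had been seen.

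The members and the lists were chosen with earlier results of these data known. Values in every mouse are given for the 4 members with the smallest p-value in each comparison and for 14 fixed members, and other members are named by role. Of the other cell cycle lists, the gene with the smallest p-value in each comparison and Mki67, Top2a, Ccnd1, Cdkn1a and Myc are named, and Orc2 to Orc5 were added after values had been seen. Coordinates of genes were taken from Gencode M21 (GRCm38). Promoter windows are RefSeq sequences on GRCm38.p6, and matches were searched with Python 3.11.15. The other assays of the study were not analysed here.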

Additional observations from a re-analysis of the deposited data

Results flagged for a closer look

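Among the genes of the cell cycle lists, 2 had an unadjusted p-value under 0.05 between the ob/ob and the HFD mice, and neither is a member of the replication list. They were 1 of 34 other replication genes and 1 of 26 other G1/S control genes, with 0 of 25 mitosis genes. The share of all genes under this threshold in the same limma comparison was 3.91%, so this number does not stand out. Cdkn1a, the gene of p21, was lower in ob/ob than in HFD mice by a log2 difference of -0.83 ± 0.3 (SE), and both ob/ob mice lay below all HFD mice. Rfc1, the large subunit of the clamp loader of PCNA, was higher in ob/ob mice by 0.46 ± 0.18 (SE), and both ob/ob mice lay above all HFD mice. Neither passed after adjustment (limma adjusted p = 0.9996 for each). The Cdkn1a call was lost without HFD replicate 2 (-0.61) or ob/ob replicate 2 (-0.67), and with only the groups compared (-0.83). The Rfc1 call was lost without any 1 of the LFD mice (0.46), HFD replicate 2 or HFD replicate 3 (0.45 each), or ob/ob replicate 2 (0.23), and with an untrended variance (0.46), only the groups compared (0.46) or the replicate block (0.45).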

How the results depend on the processing

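Over 1640 recomputed gene differences, 1400 kept their direction and their side of the threshold, 130 were no longer called, 86 were newly called and 24 changed direction, all of them of genes that were not called. The count of called members for HFD against LFD (15) was 12 to 16 with an untrended variance, a fit on these groups alone, the filter at a mean of 5, centring or quantile normalization, 7 with the acinar covariate, and 8 to 33 when 1 mouse was left out. In the ob/ob mice against LFD (17) the same alternatives gave 15 to 23, the acinar covariate 7, and leaving out 1 mouse 2 to 24. Between ob/ob and HFD (0) the acinar covariate gave 1 and leaving out 1 mouse 0 to 1. The median difference of the members was 0.24 with the acinar covariate for HFD against LFD (0.66), and 0.48 to 0.94 without 1 mouse. It was 0.38 to 1.10 without 1 mouse between ob/ob and LFD (0.68), and -0.22 to 0.47 between ob/ob and HFD (0.14), negative without HFD replicate 1 (-0.20) or ob/ob replicate 2 (-0.22). The calls of Orc1, Pole, Pola1, Pcna, Ccne2 and Pold2 for HFD, and of Gins3 for ob/ob, held in every alternative that could be run, and Orc1 and Gins3, with means under 5, drop out of the filter.

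The differences that turned negative with the acinar covariate were, for HFD, those of Cdt1 (-0.30), Cdc45 (-0.26), Mcm3 (-0.22), Rfc5 (-0.22), Rpa2 (-0.15), Pola2 (-0.057), Ccne1 (-0.053), Rpa1 (-0.030), Fen1 (-0.024), Gmnn (-0.015) and Gins4 (-0.0053), and, for ob/ob, those of Cdc45 (-0.35), Cdt1 (-0.19), Ccne1 (-0.16), Pola2 (-0.081), Fen1 (-0.076), Mcm10 (-0.041) and Rpa2 (-0.023). Quantile normalization turned Cdt1 for HFD to -0.039. Without 1 mouse, Cdt1 for HFD was -0.078 to 0.60, Gins4 -0.021 to 0.35 and Rfc5 -0.080 to 0.32, and Ccne1 for ob/ob was -0.03 to 0.63. The cause of these changes was not tested.

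The labels do not say that a replicate number pairs the mice, which are different animals. The deviations of same-numbered mice from their group means had correlations of -0.28 to 0.11 between LFD and HFD, -0.097 and 0.13 between LFD and ob/ob, and 0.59 and 0.30 between HFD and ob/ob, where a group of 2 mice fixes their deviations as opposites. No LFD mouse correlated best with the HFD mouse of its own number, so the numbers were not taken as pairs. With the replicate number as a block, 22 members were called between HFD and LFD, 26 between ob/ob and LFD and 2 between ob/ob and HFD, when 21.6%, 21.6% and 3.10% of all genes were called.

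The unknown depth limits the genes with few reads, of which 5 members had a mean rlog value under 5, since the transformation shrinks their differences. The members had a median residual SD of 0.44, against 0.34 over all genes. With 3, 3 and 2 mice, small differences could not be told from the spread between mice.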

Other observations

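Several other replication genes with an unadjusted p-value under 0.05 in limma were looked at after their values had been seen, and they were not recomputed under the alternatives. Dbf4, the activator of the Cdc7 kinase that fires licensed origins, stood at 5.66, 5.95 and 5.55 in the LFD mice, 6.07, 7.18 and 7.42 in the HFD mice, and 6.57 and 7.89 in the ob/ob mice. The 5 obese mice lay above the LFD mice, HFD replicate 1 by the least, with differences of 1.17 ± 0.44 (SE) for HFD and 1.51 ± 0.49 (SE) for ob/ob. Ticrr and Topbp1, which act at the firing of origins, had differences of 1.47 and 0.78 for HFD and 1.1 and 0.79 for ob/ob. Clspn, which encodes claspin, a mediator of the replication checkpoint, had differences of 1.2 ± 0.47 (SE) and 1.21 ± 0.53 (SE). Dut, for the enzyme that removes dUTP, had differences of 0.76 for HFD and 0.77 for ob/ob. All of these passed the unadjusted and none the adjusted threshold.

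Pold3 and Pold4, the other accessory subunits of polymerase delta, were looked up because of the lower values of Pold2. Pold3 had differences of 0.28 ± 0.19 (SE) for HFD and 0.24 ± 0.21 (SE) for ob/ob, and Pold4 of 0.47 ± 0.28 (SE) and 0.37 ± 0.31 (SE), and none of the 4 passed the unadjusted threshold. Among the G1/S control genes, E2f3, another E2F factor, was higher in both obese groups (1.64 ± 0.4 (SE) and 1.16 ± 0.44 (SE)), and Cdc25a, a phosphatase that activates the kinase of cyclin E, was lower (-0.61 ± 0.27 (SE) and -0.9 ± 0.3 (SE)), each with an unadjusted p-value under 0.05. Cdc25a stood at 9.17, 9.16 and 9.16 in the LFD mice, 9.08, 8.21 and 8.36 in the HFD mice, and 8.62 and 7.91 in the ob/ob mice, so that HFD replicate 1 was close to the LFD mice and ob/ob replicate 2 was lowest.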
